A study of Homo sapiens with 6 samples.

Results

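The epithelial junction and keratin genes examined here were 48 genes of the kind that LSD1, together with the repressor SNAI1, is known for holding down. Whether each of the 48 is such a target was not tested. They were taken from a list of gene names that was chosen with earlier results of these data known. The list comprised 7 regulators, 4 surface and proteolysis genes, 9 keratins, 8 desmosome genes, 7 claudins, 8 other tight junction genes, 3 polarity and trafficking genes and 2 gap junction genes. Of the 48 genes, 44 had a row among the 15585 genes of the count table, and ESRP1, OVOL1, OVOL2 and GJA1 were not analysed here. RNA-seq was performed on total RNA of U2OS cells, an established human osteosarcoma line, 48 h after transfection with control siRNA (siCTR, 3 libraries) or LSD1 siRNA (siLSD1, 3 libraries). The labels name no other treatment and do not say which LSD1 siRNA was used. Nothing in them says that the 3 libraries of a group came from separate cultures, so p-values measure only the spread between these libraries, which may be technical.

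Epithelial cells are held together by tight junctions, which seal the space between cells through claudins and their scaffold proteins, and by desmosomes, which anchor keratin filaments to the membrane. LSD1 (gene symbol KDM1A) removes methyl groups from lysine 4 of histone H3 and works within the CoREST complex, and SNAI1 carries it to E-box sequences in the promoters of epithelial genes such as CDH1. U2OS cells are of mesenchymal origin, and many epithelial genes are normally low in such cells.

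Between 12513511 and 13561344 reads were counted per library. KDM1A had 6140, 6493 and 6573 reads in siCTR against 1110, 1198 and 1246 reads in siLSD1, and it fell by 2.44 on the log2 scale (SE 0.11, edgeR adjusted p = 2.27e-07). The mesenchymal marker VIM had 9487 to 11615 reads and the bone enzyme ALPL had 4162 to 5411, whereas the osteoblast factor RUNX2 had 0 to 4 reads and SPARC had 0 to 3. A low count could not be read as absence in this table, since the ubiquitous gene CDC42, picked after its values were seen, had 7 to 16 reads beside 54075 to 64686 for GAPDH. The siCTR replicate 2 library stood apart from the others of its group, its counts differing from theirs by a chi-square of 29.1 and 22.5 per degree of freedom, where a value near 1 would be sampling noise, and siLSD1 replicates 1 and 3 differed from each other by 23.2.

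The levels of these genes spanned a wide range. Ranked by FPKM, a read count scaled to gene length and library size, 4 genes lay over 100 (KRT18, KRT8, KRT17 and KRT7), 12 lay between 10 and 100, 11 lay between 1 and 10, and 17 were at 1 or less. KRT18 and KRT8, the keratin pair of simple epithelia, had mean levels of 503 and 429 FPKM over the 6 libraries, higher than 99.7% and 99.6% of all genes in the table. The desmosome genes DSG2 (38.5 FPKM), DSP (34.2), PKP4 (31.7) and PKP3 (29.9) came next after these and KRT80 (75.7). In contrast, 12 genes stayed below the count filter of the test with 0 to 10 reads in every library. These were GRHL2, SPINT1, KRT19, KRT81, DSC3, PKP1, CLDN3, CLDN11, OCLN, MARVELD2, RAB25 and GJB2. The role lists were mixed in level, with DSC2, DSC3 and PKP1 of the desmosome and KRT15, KRT19 and KRT81 of the keratins at less than 1 FPKM, and the tight junction gene CLDN1 at 24.5 FPKM.

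**Figure D1:**
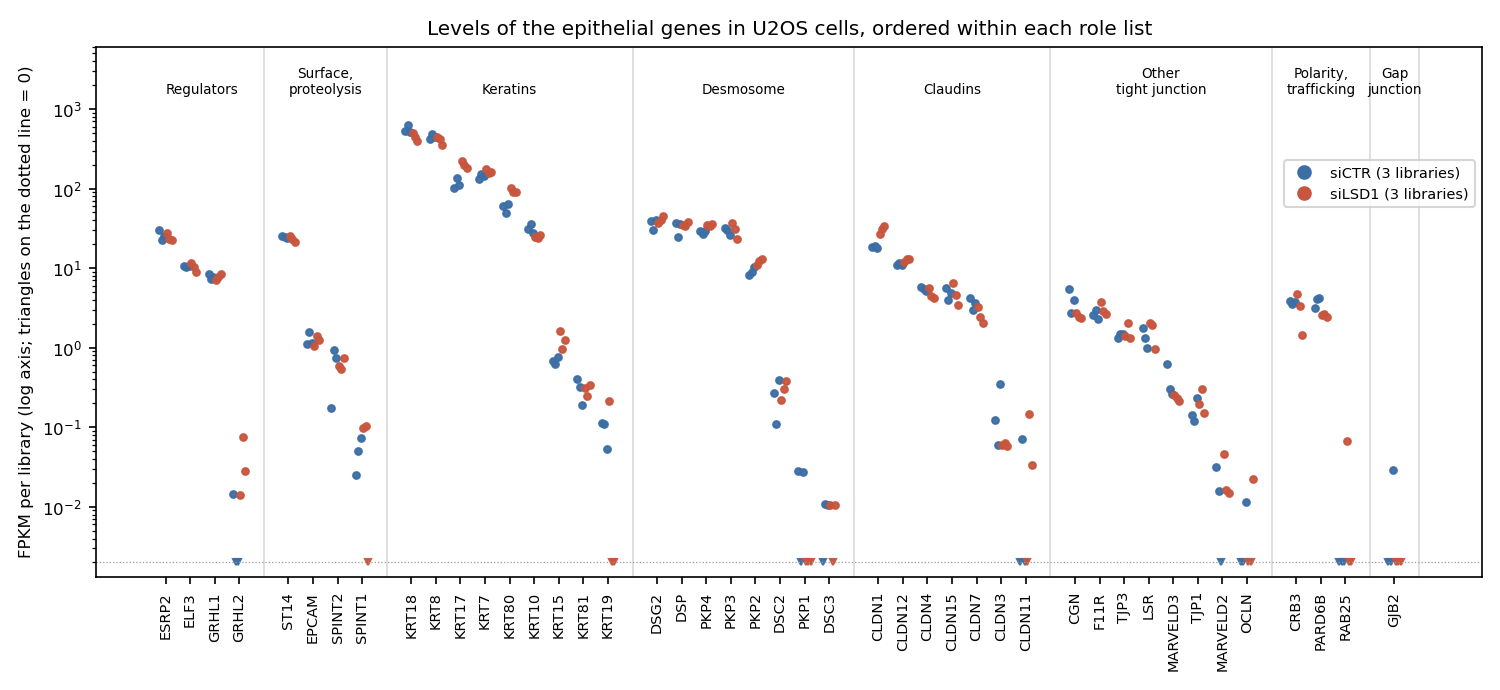
FPKM of the 44 measured epithelial genes in each of the 3 siCTR (blue) and 3 siLSD1 (red) libraries on a log axis, ordered by level within each role list; a triangle on the dotted line marks a value of 0. KRT18 and KRT8 sit highest at mean levels of 503 and 429 FPKM, and 17 genes sit at a mean of 1 FPKM or less.

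To ask whether these genes changed after LSD1 knockdown, the 32 that passed the count filter were read from a test across all 11844 genes. In all, 3 genes rose at an adjusted p under 0.05 (KRT17, KRT80 and CLDN1), which was 9.38% of the 32, where 1.07% of all tested genes rose. Because the genes and lists were chosen with earlier results of these data known, the shares here and below are no test of the set. None of the 32 fell at that threshold, where 0.371% of all tested genes fell. When same-numbered libraries were fitted as a block, KRT15 and PKP2 were also called higher (edgeR adjusted p = 0.00596 and 0.0132). That fit called CGN and PARD6B lower (edgeR adjusted p = 0.00188 and 0.00752), where 4.13% of all tested genes rose and 3.44% fell. In the fit without a block, 6 genes were higher at an unadjusted p under 0.05 (18.8%, against 7.48% of all tested genes). At that threshold 5 were lower (15.6%, against 6.55%), so the nominal differences went in both directions. The 6 were KRT15, KRT17, KRT80, PKP2, PKP4 and CLDN1, and the 5 were KRT10, KRT18, CLDN7, CGN and PARD6B. The siLSD1 libraries all lay above the siCTR libraries for 7 genes and all below for 5, where the same held for 11.4% and 9.97% of all tested genes. The median log2 fold change over the 32 was 0.03, with 17 genes higher and 15 lower, beside -0.014 over all tested genes. Of the 21 genes that passed neither threshold, 11 had a 95% confidence interval within 0.5 on either side of 0 on the log2 scale. In bulk RNA, more cells expressing a gene and more RNA per cell cannot be told apart.

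**Figure D2:**
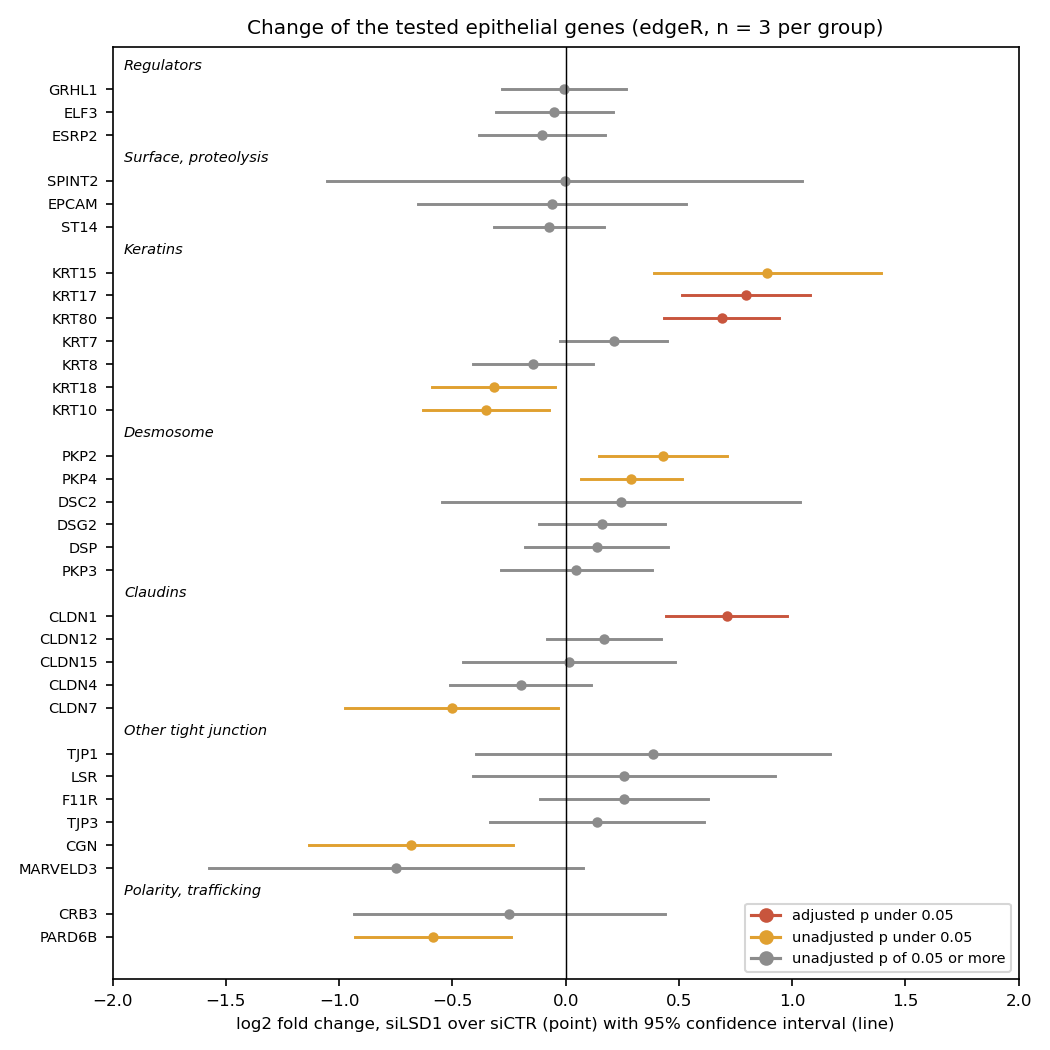
Log2 fold change of siLSD1 over siCTR (points) with its 95% confidence interval (lines) for the 32 tested epithelial genes, grouped by role. The 3 red genes, KRT17, KRT80 and CLDN1, passed an adjusted p under 0.05, and the orange genes, 3 higher and 5 lower, passed only the unadjusted threshold.

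The keratins differed in opposite directions, with KRT17 and KRT80 up while KRT18 and KRT10 were nominally lower. KRT17, a type I keratin of basal cells and of epithelia under stress (chromosome 17, 41619442 to 41624842, minus strand, GRCh38), had 2167, 2884 and 2455 reads in siCTR against 4867, 4119 and 4081 in siLSD1. Every siLSD1 library lay well above every siCTR library. KRT17 rose from 191 ± 29.8 to 332 ± 30.1 CPM (read counts scaled to library size by TMM, mean ± SD, n = 3), a log2 fold change of 0.79 (SE 0.13, edgeR adjusted p = 0.0105). The adjusted p was 0.0579 without siCTR replicate 3. KRT17 lies near its close relatives KRT14 and KRT16, and the counting could have split reads among them. KRT14 had 0 to 5 reads and KRT16 had 60, 59 and 76 reads in siCTR against 94, 74 and 43 in siLSD1, so KRT16 overlapped between groups.

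KRT80, a type II keratin of differentiating epithelia (chromosome 12, 52168996 to 52192014, minus strand), had 3032, 2527 and 3323 reads in siCTR against 5187, 4359 and 4802 in siLSD1. The groups were again apart, with siCTR replicate 2 the lowest of all 6. KRT80 rose by 0.69 on the log2 scale (SE 0.12, edgeR adjusted p = 0.0128), from 226 ± 26.0 to 364 ± 19.7 CPM (n = 3). Leaving out siLSD1 replicate 1 gave an edgeR adjusted p of 0.0531, and leaving out siLSD1 replicate 2 gave 0.0530.

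KRT15, a basal and hair follicle keratin, was counted far less often, with 46, 42 and 54 reads in siCTR against 113, 63 and 89 in siLSD1. The groups did not overlap, but the siLSD1 libraries spread widely and the log2 difference of 0.89 (SE 0.23) had an edgeR adjusted p of 0.0867. With DESeq2 instead, KRT15 had an adjusted p of 0.0467 and joined the other 3 as the fourth gene up, where DESeq2 called 1.77% of all tested genes up and 0.954% down and none of the 32 epithelial genes down.

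KRT18 had 13659, 16655 and 13696 reads in siCTR against 13187, 11320 and 10914 in siLSD1. Its CPM was lower in each siLSD1 library than in any siCTR library, by a log2 difference of -0.32 (SE 0.13, edgeR adjusted p = 0.268). The difference was -0.20 without siCTR replicate 2, and the unadjusted threshold was missed without that library, siLSD1 replicate 2 or siLSD1 replicate 3. Its partner KRT8 had 24630, 29212 and 27167 reads in siCTR against 27365, 24309 and 21772 in siLSD1, with overlapping groups and a log2 difference of -0.14 (95% interval -0.41 to 0.12). Both genes had their highest count in siCTR replicate 2. They lie head to head on chromosome 12 (KRT8 at 52897187 to 52949954 on the minus strand, KRT18 at 52948871 to 52952906 on the plus strand), and their annotated spans overlap. Whether strand was used in counting is not given in the sources used here, and both have many processed copies in the genome, so these 2 counts are uncertain at their edges.

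KRT10, a keratin of suprabasal epidermis, had 843, 1000 and 792 reads in siCTR against 692, 631 and 751 in siLSD1, a log2 difference of -0.35 (SE 0.13, edgeR adjusted p = 0.230) with no overlap. It was -0.23 without siCTR replicate 2, and the unadjusted threshold was missed without that library or siLSD1 replicate 2. KRT7, another simple epithelial keratin, stood at 251 ± 20.1 CPM in siCTR and 291 ± 15.0 in siLSD1 (n = 3), without overlap and with a log2 difference of 0.21 (95% interval -0.02 to 0.45). It passed neither threshold. With GC and length correction its difference was 0.38 (edgeR adjusted p = 0.0505).

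The summed keratin level differed between the groups by less than its SD, while its make-up differed. Keratin filaments pair 1 type I with 1 type II protein, and the 9 keratins of the list summed to 1356 ± 124 FPKM in siCTR and 1343 ± 128 FPKM in siLSD1 (n = 3). Grouping by type was added after the values were seen, and the shares carry no test. Shares are parts of the same sum, so a larger share of KRT17 or KRT80 leaves less for the others. The shares are therefore not separate results. KRT17 made up 15.4%, 16.6% and 17.1% of type I FPKM in siCTR and 29.9%, 29.6% and 29.9% in siLSD1. The share of KRT18 was 79.0% ± 0.697 in siCTR and 66.3% ± 0.595 in siLSD1 (n = 3). Among type II keratins, KRT80 stood at 8.96% ± 1.52 in siCTR and 14.1% ± 0.919 in siLSD1, and KRT8 at 69.1% ± 1.58 and 61.0% ± 2.57. KRT8 and KRT18 together were 74.2% ± 1.00 of the 9-keratin sum in siCTR and 63.7% ± 1.58 in siLSD1. None of these shares overlapped between the groups, and the shares of KRT17 differed by less than 2 percentage points within each group, including siCTR replicate 2.

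**Figure D3:**
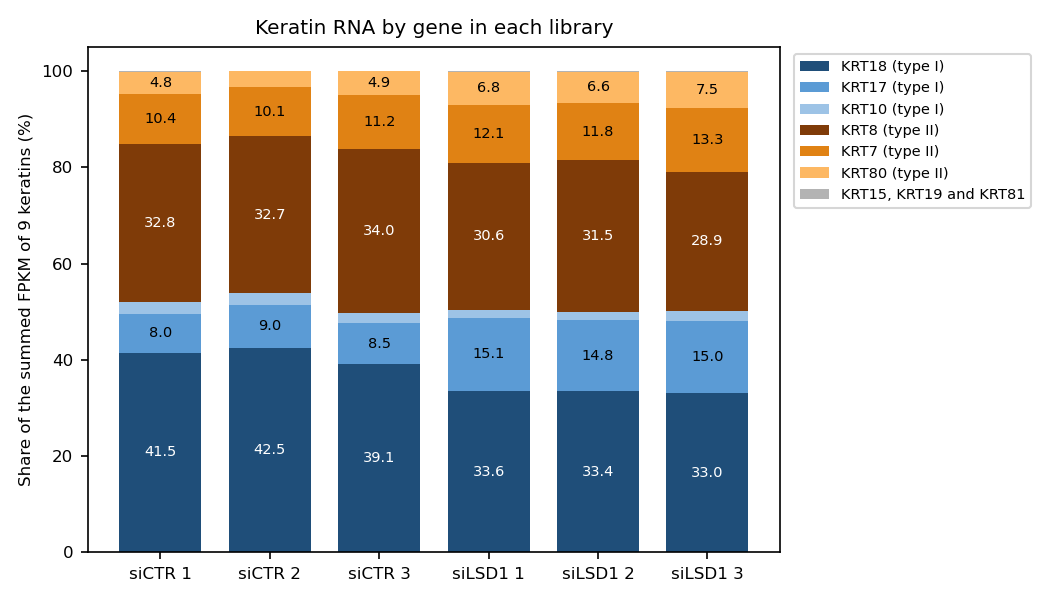
Stacked shares of the summed FPKM of 9 keratins in each of the 6 libraries, in percent, with type I keratins in blue and type II in brown and orange. KRT17 fills 8.0% to 9.0% of the column in siCTR and 14.8% to 15.1% in siLSD1. KRT18 fills 39.1% to 42.5% in siCTR and 33.0% to 33.6% in siLSD1. Shares are parts of the same sum, so a larger share of KRT17 leaves less for the others.

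The 6 tested desmosome genes were on the higher side in siLSD1, where 47.3% of all tested genes were, but none passed the adjusted threshold. At the unadjusted threshold 2 were higher (33.3%), beside 7.48% of all tested genes. With a single library left out, DSP, DSC2 and PKP3 turned to the lower side. Plakophilins bind the tails of desmosomal cadherins and link them to desmoplakin. PKP2 had 461, 513 and 607 reads in siCTR against 651, 691 and 790 in siLSD1, a log2 difference of 0.43 (SE 0.13, edgeR adjusted p = 0.152) with no overlap. PKP4, a plakophilin relative also found at adherens junctions, had 2255, 2073 and 2333 reads in siCTR against 2707, 2533 and 2921 in siLSD1, a log2 difference of 0.29 (SE 0.10, edgeR adjusted p = 0.220), which missed the unadjusted threshold without siLSD1 replicate 2. Its groups did not overlap either.

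The desmosomal cadherin DSG2 had 3072, 2462 and 3334 reads in siCTR against 3052, 3073 and 3794 in siLSD1, and its log2 difference of 0.16 had a 95% interval of -0.12 to 0.44. Desmoplakin (DSP), the plaque protein that holds keratin filaments, had 4673, 3109 and 4767 reads in siCTR against 4559, 4161 and 5104 in siLSD1. In both genes siCTR replicate 2 was the lowest library and the groups overlapped. The log2 difference of DSP was 0.14 (95% interval -0.18 to 0.45) and was -0.02 without siCTR replicate 2. PKP3 and DSC2 differed by 0.05 and 0.24 on the log2 scale, with intervals that included 0, though with GC and length correction PKP3 differed by 0.26 (edgeR adjusted p = 0.0440). DSC3 and PKP1 had 0 to 2 reads.

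CLDN1 was the only one of the claudins, the proteins that form the seal of the tight junction, that passed the adjusted threshold. CLDN1 (chromosome 3, 190305707 to 190322446, minus strand) had 834, 866 and 846 reads in siCTR against 1232, 1331 and 1615 in siLSD1. The siCTR libraries were tightly grouped and all siLSD1 libraries lay above them. CLDN1 rose from 64.9 ± 2.32 to 106 ± 14.0 CPM (n = 3), a log2 fold change of 0.71 (SE 0.12, edgeR adjusted p = 0.0135). The edgeR adjusted p was 0.0678 without siCTR replicate 3 and 0.0746 without siLSD1 replicate 2.

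CLDN12, the next most abundant claudin, had 496, 543 and 532 reads in siCTR against 564, 584 and 621 in siLSD1, a log2 difference of 0.17 (95% interval -0.08 to 0.42). CLDN7 had 113, 81 and 100 reads in siCTR against 89, 62 and 57 in siLSD1, a log2 difference of -0.50 (SE 0.22, edgeR adjusted p = 0.316), which missed the unadjusted threshold in 4 of the 6 fits with a library left out. Unlike CLDN1, both overlapped between groups in CPM. CLDN4 and CLDN15 differed by -0.20 and 0.02 on the log2 scale, and CLDN3 and CLDN11 had 0 to 6 reads.

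The start sites of these genes are shown for the E-box words CACCTG and CAGGTG, which SNAI1 and ZEB proteins are known to bind. A window of 250 bases before to 50 bases after the start, from RefSeq on GRCh38.p14, was at hand for 28 of the 48 genes, and KRT17 and KRT80 were not among them. Either word, searched on both strands (each word is the reverse complement of the other, and they do not overlap), was found in 14 of the 38 windows of these genes (36.8%), where 20.6% of all 35116 windows hold one. The word was found for 13 of the 28 genes (46.4%), beside 24.1% of all genes with a window. Shown 5′ to 3′ on the strand of the gene are CLDN1 (chr3:190322397-190322696, minus strand), the one gene with an adjusted call that had a window, CGN (chr1:151511137-151511436, plus strand), nominally lower, and a start site of CLDN7 (chr17:7262429-7262728, minus strand), nominally lower with 5 words. Capitals mark the words.
CLDN1: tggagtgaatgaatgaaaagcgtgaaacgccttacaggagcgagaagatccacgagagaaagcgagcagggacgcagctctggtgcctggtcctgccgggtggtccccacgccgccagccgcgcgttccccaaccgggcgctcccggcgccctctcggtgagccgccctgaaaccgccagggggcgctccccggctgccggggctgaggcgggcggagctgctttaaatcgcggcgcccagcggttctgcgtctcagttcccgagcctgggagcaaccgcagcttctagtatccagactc
CGN: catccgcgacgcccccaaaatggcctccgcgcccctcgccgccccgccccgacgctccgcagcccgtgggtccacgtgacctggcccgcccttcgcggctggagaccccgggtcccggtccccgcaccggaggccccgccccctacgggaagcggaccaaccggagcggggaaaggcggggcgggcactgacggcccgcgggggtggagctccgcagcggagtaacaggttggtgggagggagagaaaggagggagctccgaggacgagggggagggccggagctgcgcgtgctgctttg
CLDN7: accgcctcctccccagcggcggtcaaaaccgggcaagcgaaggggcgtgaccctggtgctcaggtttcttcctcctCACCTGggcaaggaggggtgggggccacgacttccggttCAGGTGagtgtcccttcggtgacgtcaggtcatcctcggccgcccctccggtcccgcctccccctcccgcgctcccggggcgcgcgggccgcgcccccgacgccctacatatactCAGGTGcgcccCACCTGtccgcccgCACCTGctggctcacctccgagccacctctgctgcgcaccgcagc
The windows of CLDN1 and CGN held neither word. The words in the CLDN7 window shown lay at 174, 135, 20 and 9 bases before the start and 5 bases after it. The other CLDN7 window (chr17:7263164-7263463) held neither word, and the CRB3 window also held 5. A gene was taken to have a word if any of its windows did, and TJP1 too had windows without it. The log2 fold changes ran from -0.50 (CLDN7) to 0.39 (TJP1) in the 8 tested genes with a word and from -0.68 (CGN) to 0.71 (CLDN1) in the 10 tested genes with a window but no word. TJP1 was sparse, at 15 to 37 reads, and its value ran from 0.07 to 0.71 with a library left out. A match is a string of letters in the window and was not tested as a binding site.

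The other tight junction genes contained no adjusted call among 6 tested. CGN, which encodes cingulin, a scaffold on the cytoplasmic side of the junction (chromosome 1, 151510510 to 151538692, plus strand), had 355, 180 and 275 reads in siCTR against 187, 154 and 164 in siLSD1. The siCTR libraries spread from a level close to siLSD1 (replicate 2) to a level well above it (replicate 1). The log2 difference was -0.68 (SE 0.21, edgeR adjusted p = 0.151). Whether CGN was called depended on which siCTR library was left out. The difference was -0.90 with an edgeR adjusted p of 0.0442 without replicate 2. It was -0.43 with an edgeR adjusted p of 0.323 without replicate 1, and -0.69 with 0.265 without replicate 3.

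F11R, the junctional adhesion molecule JAM-A, had 160, 185 and 148 reads in siCTR against 242, 175 and 175 in siLSD1, a log2 difference of 0.26 (95% interval -0.11 to 0.63). The siLSD1 replicate 1 library was the highest, and the other siLSD1 libraries overlapped with siCTR. MARVELD3 lay lower in all siLSD1 libraries (14 to 16 reads against 17 to 38), with a log2 difference of -0.75 whose interval of -1.58 to 0.07 included 0. Without siCTR replicate 1, its highest library, the difference was -0.29. TJP1 (15 to 37 reads), TJP3 (61 to 91) and LSR (33 to 69) overlapped between groups.

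The polarity genes PARD6B and CRB3 were on the lower side. PARD6B, an adaptor of the apical PAR complex (chromosome 20, 50731580 to 50756795, plus strand), had 189, 254 and 264 reads in siCTR against 161, 156 and 154 in siLSD1. The siLSD1 libraries were nearly equal and below all siCTR libraries. The log2 difference was -0.59 (SE 0.16, edgeR adjusted p = 0.103), and the edgeR adjusted p was 0.0499 without siCTR replicate 1. CRB3, the small Crumbs protein of the apical membrane, had 80, 74 and 81 reads in siCTR against 101, 66 and 31 in siLSD1. Its siLSD1 libraries fell on both sides of siCTR, and the interval of its log2 difference ran from -0.93 to 0.44.

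**Figure D4:**
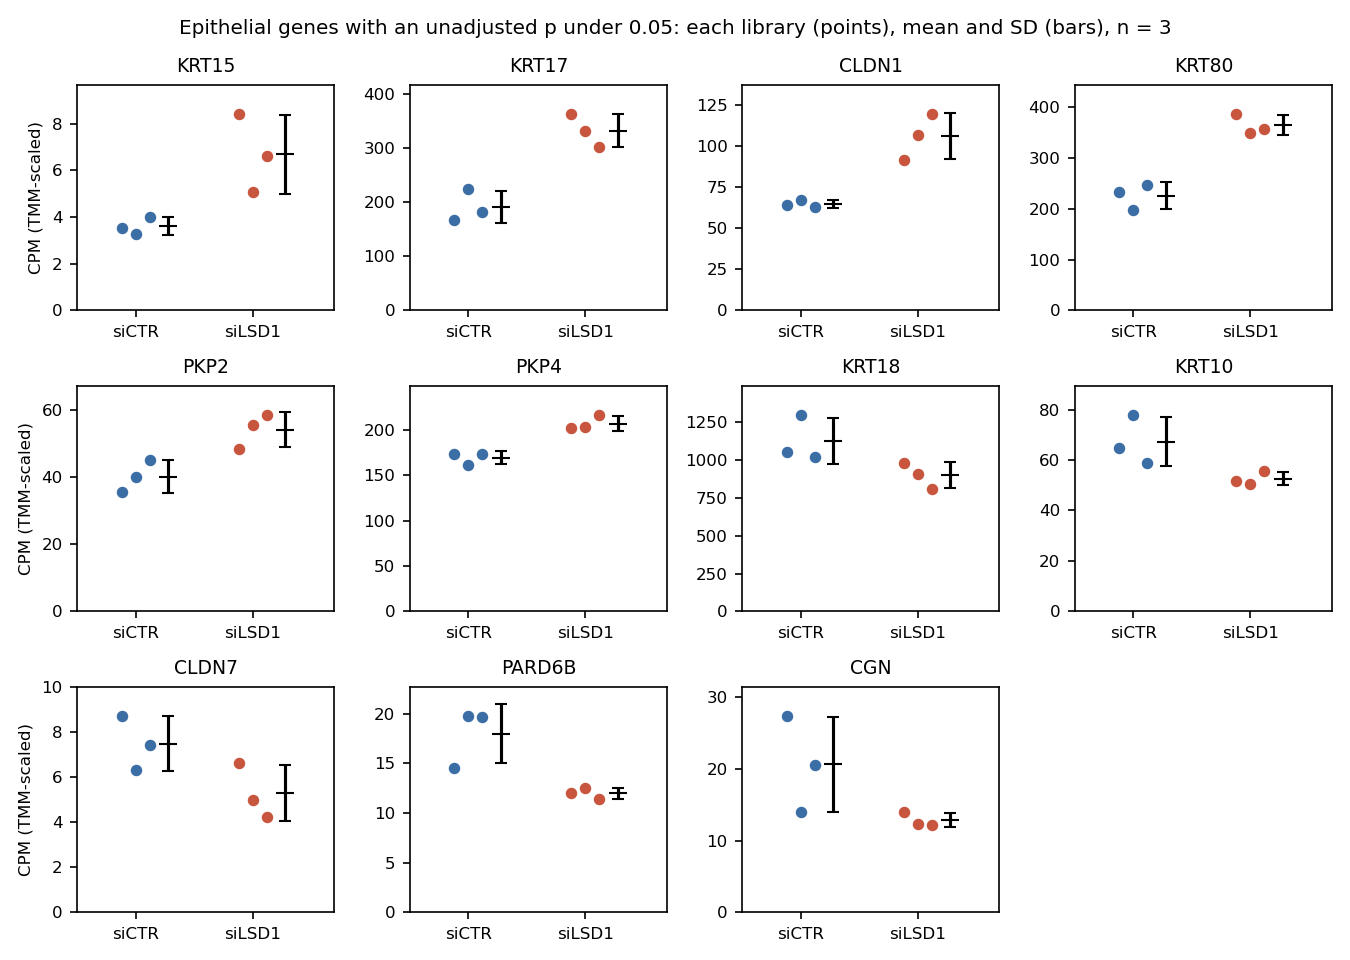
CPM after TMM scaling of the 11 epithelial genes with an unadjusted p under 0.05, each library as a point beside the mean and SD of its group (n = 3 per group), on axes that start at 0. KRT17, KRT80 and CLDN1 show siLSD1 libraries well above siCTR (332 against 191, 364 against 226 and 106 against 64.9 CPM on average), and CLDN7 is the one panel where the groups overlap.

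The regulators and surface genes of the epithelial state did not pass either threshold. ESRP2, a splicing regulator of epithelial isoforms, had 1493, 1128 and 1319 reads in siCTR against 1394, 1117 and 1166 in siLSD1, a log2 difference of -0.10 (95% interval -0.38 to 0.17). ELF3, an epithelial ETS factor, had 847, 833 and 892 reads in siCTR against 944, 795 and 750 in siLSD1, a log2 difference of -0.05 (95% interval -0.31 to 0.21). GRHL1, of the grainyhead family, differed by -0.01 on the log2 scale. The intervals of all 3 stayed within 0.5 on either side of 0. ST14, the membrane protease matriptase, had 1148, 1133 and 1125 reads in siCTR against 1204, 1028 and 1013 in siLSD1, a log2 difference of -0.07 (95% interval -0.32 to 0.17). EPCAM, a defining epithelial surface protein, had 29, 41 and 31 reads in siCTR against 28, 35 and 34 in siLSD1, and its interval was wider (-0.65 to 0.53). SPINT2, an inhibitor of matriptase, had 4 to 22 reads and an interval from -1.06 to 1.05 on the log2 scale. Of the gap junction genes, GJB2 had 0 to 1 read.

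To set these genes beside the rest of their pathways, 133 other keratin, junction, polarity and repressor genes were read from the same test. Of these, 104 were in the table and 64 were tested; 2 rose and none fell at an adjusted p under 0.05, and 8 were higher and 3 lower at an unadjusted p under 0.05. The adjusted calls up were 3.12% of the 64, beside 1.07% of all tested genes, and the unadjusted shares were 12.5% and 4.69%, beside 7.48% and 6.55%. PERP, a tetraspan protein of desmosomes, had 1461, 1913 and 1883 reads in siCTR against 2668, 2689 and 3387 in siLSD1, without overlap. It rose by 0.73 on the log2 scale (SE 0.13, edgeR adjusted p = 0.0172), and the adjusted p was 0.0587 without siCTR replicate 3 and 0.0629 without siLSD1 replicate 2. PARD3, the scaffold of the PAR polarity complex in which PARD6B works, had 753, 702 and 842 reads in siCTR against 1120, 1075 and 1098 in siLSD1. It rose by 0.52 (SE 0.11, edgeR adjusted p = 0.0376), whereas PARD6B was on the lower side, and its call was lost whichever single library was left out, with edgeR adjusted p-values from 0.0583 to 0.239.

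All 8 tested genes of the list of other desmosome and hemidesmosome genes and all 4 of the other keratin list were on the higher side, with medians of 0.24 and 0.82 on the log2 scale, where 47.3% of all tested genes were higher. With single libraries left out, JUP (0.0041 with all libraries), PLEC (0.14) and KRT16 (0.11) turned to the lower side. Of the 8, PLEC, DST, ITGB4 and COL17A1 belong to hemidesmosomes, which anchor cells to the matrix. The keratins were sparse. KRT13 had 2, 9 and 2 reads in siCTR against 20, 12 and 15 in siLSD1, and KRT86 had 28, 11 and 24 and then 45, 39 and 41. KRT13 passed the count filter only through its siLSD1 libraries, so its higher side follows in part from the filter. It counts among the 4 and among the nominally higher related genes, and is no separate result. KRT86 is a near-identical copy of KRT81, which had 5 to 10 reads, so the assignment of these reads is uncertain. PANX1, a pannexin gene placed on the list of other gap junction genes, differed by 0.33 on the log2 scale (SE 0.14, edgeR adjusted p = 0.302). It missed the unadjusted threshold in 3 of the 6 fits with a library left out.

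None of the 14 tested genes of the list of epithelial gene repressors and their partners passed the adjusted threshold, where 1.07% of all tested genes rose and 0.371% fell. At the unadjusted threshold 1 was higher and 3 were lower (7.14% and 21.4%), beside 7.48% and 6.55% of all tested genes. SNAI1 had 149, 133 and 111 reads in siCTR against 127, 151 and 99 in siLSD1, a log2 difference of -0.06 (95% interval -0.50 to 0.39). SNAI2, ZEB1 and ZEB2 differed by 0.01, -0.02 and -0.01 on the log2 scale, and only ZEB1 and ZEB2 had intervals within 0.5 on either side of 0. TWIST2 and FOXC2 were lower by a log2 difference of -0.42 each, and TCF3 (E2A) was higher by 0.40, with edgeR adjusted p-values of 0.238, 0.276 and 0.179. The unadjusted threshold was missed by FOXC2 without siCTR replicate 1, siCTR replicate 2 or siLSD1 replicate 3 (a difference of -0.24), by TWIST2 without siLSD1 replicate 3 and by TCF3 without siLSD1 replicate 1. RCOR2, the third repressor gene on the lower side at the unadjusted threshold, was named after its values were seen and had a log2 difference of -0.51 (edgeR adjusted p = 0.349), which missed the unadjusted threshold in 5 of the 6 fits with a library left out.

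Markers of other cell types were read in the same libraries. Of 7 defining epithelial markers, 6 were in the table and their summed level was 29.1 to 34.0 CPM in siCTR and 31.2 to 37.0 in siLSD1, with KRT5, KRT14 and RAB25 at 0 to 5 reads. CDH1, the cadherin of epithelial adherens junctions, had 95, 80 and 66 reads in siCTR against 154, 117 and 143 in siLSD1, a log2 difference of 0.77 (SE 0.19, edgeR adjusted p = 0.0699). CDH1 was called up with DESeq2 (adjusted p = 0.0285) and with GC and length correction (edgeR adjusted p = 0.0265). The other tested markers of the 7, EPCAM and CLDN4, lay on the lower side, with log2 differences of -0.06 and -0.20. Of 14 mesenchymal and bone markers, 11 were in the table and summed to 1377 to 1528 CPM in siCTR and 1416 to 1444 in siLSD1, of which 2 passed the unadjusted threshold in opposite directions. FN1 rose by 0.95 on the log2 scale (edgeR adjusted p = 0.0216, and 0.0505 and 0.0541 without siLSD1 replicates 1 and 3). S100A4 was lower by a log2 difference of -0.39 (edgeR adjusted p = 0.223, or 0.0342 with GC and length correction). Its difference was -0.24 without siCTR replicate 2 and then missed the unadjusted threshold, as it did without siLSD1 replicate 3. Of 5 endothelial markers, 4 were in the table and summed to 5.45 to 8.63 CPM in siCTR and 13.7 to 14.3 in siLSD1, with PECAM1 and TEK at 0 to 3 reads in both groups. VWF carried most of this sum and rose by 0.87 on the log2 scale (edgeR adjusted p = 0.0418), and with a single library left out this call held only without siCTR replicate 1, with edgeR adjusted p-values of up to 0.181. CDH5 had 8, 4 and 11 reads in siCTR against 28, 16 and 27 in siLSD1, a log2 difference of 1.60 (edgeR adjusted p = 0.0830, or 0.0320 with GC and length correction). It would not have passed the count filter without its siLSD1 libraries, so its higher side follows in part from the filter. By western blotting, the authors reported Cadherin-5, the CDH5 protein, as higher after LSD1 depletion in U2OS cells. The part of these markers in the rise of CLDN1, KRT17 and KRT80 was not tested. Blood markers (4 of 5 in the table) summed to 1.86 to 3.43 CPM in siCTR and 1.56 to 3.80 in siLSD1.

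The directions of the 11 nominally different genes held under all 15 alternatives, but the calls did not all hold. The log2 fold change of KRT17 ran from 0.70 to 0.93 over them and was called in 14, and KRT80 (0.60 to 0.76) and CLDN1 (0.62 to 0.80) were called in 13 each. KRT15 was called higher in 5 of the 15, CGN lower in 5 and PARD6B lower in 4. With a correction for GC content and transcript length, 6 epithelial genes were called up (KRT17, KRT80, CLDN1, KRT15, PKP2 and PKP3) and 2 down (CGN and PARD6B), where 4.45% and 2.89% of all genes were called.

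**Figure D5:**
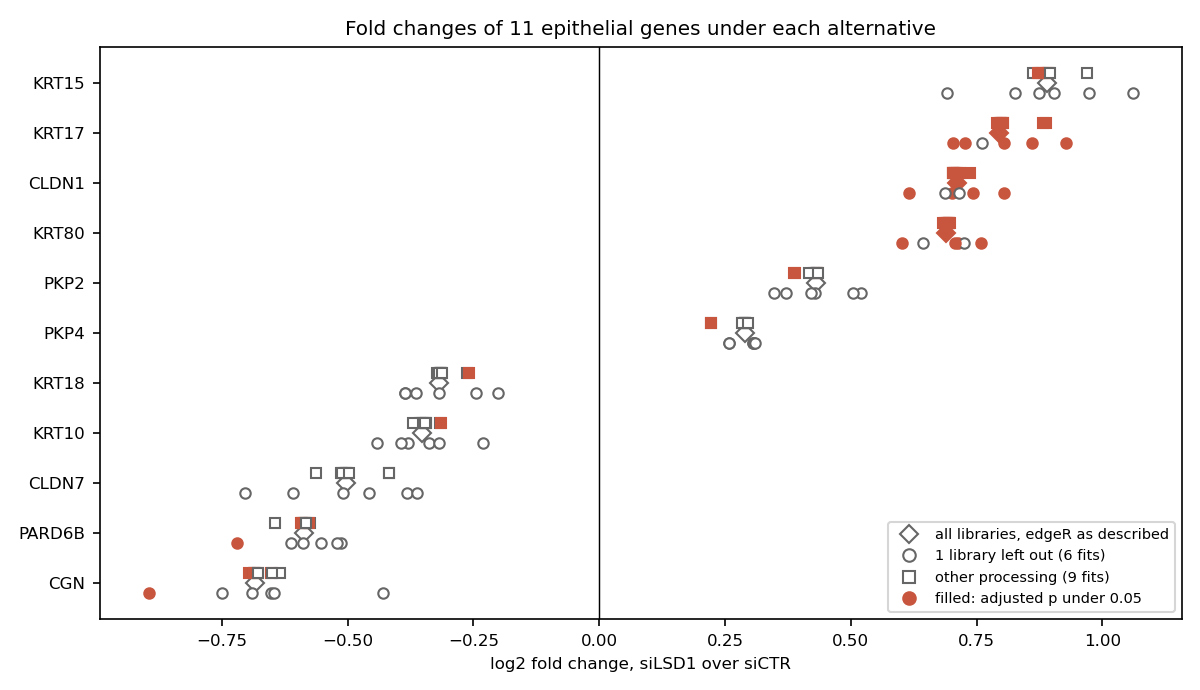
Log2 fold change of siLSD1 over siCTR for 11 epithelial genes with all libraries (diamonds), with 1 library left out (circles, 6 fits) and with other processing (squares, 9 fits), filled where the adjusted p was under 0.05. KRT17 stays between 0.70 and 0.93 and is filled in all but one alternative, while KRT18, KRT10 and CLDN7 stay left of 0 and are mostly open.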

How the data were processed

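Groups and replicate numbers were taken from the labels. The authors aligned clean reads with STAR (version not given in the sources used here) and deposited read counts and FPKM values per gene for 6 libraries. The counter, genome build and annotation are not given in the sources used here. The authors' own fold changes, p-values and FDR values were not used, and neither were 12 columns of per-sample values that repeat a selected part of the table.

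The siLSD1 and siCTR counts were compared with the quasi-likelihood F-test of edgeR 4.0.16 under R 4.3.3. Genes were kept by filterByExpr (minimum count 10) and libraries were scaled by TMM, with Benjamini-Hochberg adjustment over all 11844 genes tested. The biological coefficient of variation was 12.6%. Totals of 12513511 to 13561344 reads limit the precision of low genes. CPM values are TMM-scaled and FPKM values are as deposited by the authors. Alternatives used DESeq2 1.42.0, limma 3.58.1, other filters, GC and length correction, a replicate block and libraries left out. They also used other counts of the same libraries, which the authors gave by same-numbered pair. Gene positions came from GENCODE release 44 (GRCh38) and start-site windows from RefSeq. The scripts were tested on simulated data.

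The genes and lists were chosen with earlier results of these data known. Reads in every library are given for genes with an unadjusted p under 0.05 and for the 2 most abundant of each role list. Of related genes, the 8 with the smallest p among those under 0.05 are named.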

Additional observations from a re-analysis of the deposited data

How the results depend on the processing

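Of the 32 tested genes, 20 kept the direction of their difference under all 15 alternatives, and the 12 that turned had log2 differences of at most 0.25 in size. With a library left out, counts at an adjusted p ran from 1 to 3 up and 0 to 1 down (from 5 to 7 and 2 to 6 unadjusted). Only KRT80 was called up without siCTR replicate 3, only KRT17 without siLSD1 replicate 2, and CLDN1 and KRT17 without siLSD1 replicate 1. For related genes the same ranges were 0 to 1 up and 0 down at an adjusted p, and 6 to 13 up and 0 to 3 down unadjusted. The shares of all tested genes called in the fits with a library left out were not taken. These ranges therefore show only how the calls of the listed genes moved. Same-numbered libraries deviated together with correlations of 0.328, 0.0745 and 0.310, and each library correlated best with its own number. The authors also gave comparisons of same-numbered libraries. The labels name no shared batch, so the main fit did not take the numbers as pairs, and its calls depend on that choice. With the replicate block, 5 genes were up (KRT15 and PKP2 added) and 2 down (CGN and PARD6B), and related genes 5 up (KRT13, KRT86 and TCF3 added) and 1 down (FOXC2), where 4.13% and 3.44% of all genes were called. Of these, KRT13 had passed the count filter only through its siLSD1 libraries. With GC and length correction, 6 were up and 2 down (4.45% and 2.89% of all genes), and related genes 4 and 1, or 16 and 7 unadjusted (12.4% and 11.9% of all genes). With both, 8 were up (also KRT7 and PKP4) and 4 down (also KRT10 and KRT18; 6.18% and 4.89%), and related genes 12 and 3, or 17 and 7 unadjusted (14.1% and 14.0% of all genes). Without a filter, 4 were up (KRT15 added) and 1 gene (CGN) was down, and the share of all genes called in that fit was not taken. The cause of these differences was not tested.

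Turned log2 differences were -0.0197 (CLDN15) and 0.28 (SPINT2) with limma-voom, -0.0085 (CLDN15) and 0.0562 (SPINT2) with the replicate block, 0.0064 (EPCAM) and 0.0201 (ST14) with GC and length correction, 0.0131 (EPCAM), 0.0513 (SPINT2) and 0.0187 (ST14) with both, 0.0214 (EPCAM) and 0.0452 (SPINT2) in the second counting, and 0.0002 (SPINT2) under the stricter filter. With a library left out, ranges were -0.25 to 0.21 for CLDN15, -0.66 to 0.10 for CRB3, -0.10 to 0.68 for DSC2, -0.0239 to 0.23 for DSP, -0.13 to 0.0362 for ELF3, -0.15 to 0.12 for EPCAM, -0.19 to 0.0038 for ESRP2, -0.0735 to 0.0557 for GRHL1, -0.10 to 0.21 for PKP3, -0.45 to 0.43 for SPINT2 and -0.0715 to 0.25 for TJP3. Depth limits genes under about 10 reads, which were not tested, and the siLSD1 and siCTR groups of 3 leave a typical 95% interval of 0.31 on either side of a log2 difference.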
